A study of Mus musculus with 3 samples.

Results

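CD103-positive regulatory T cells (Tregs) of mouse epidermis were compared with those of dermis, gene by gene. A cell belonged to the set when it had at least 1 UMI (unique molecular identifier, a counted transcript) of Itgae, the gene of the CD103 chain, and no UMI of Tcf7, Lef1, Bcl2 or Satb1, which mark resting T cells. Of 1109 skin cells that passed the filters, 729 met this rule: 146 of 271 in epidermis and 583 of 838 in dermis. The whole series held 10414 filtered cells, and 358 of 9305 in lymph node met the same rule.

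The study measured RNA of single Tregs from the back skin layers and lymph node of adult mice, with 1 library per tissue. All animals were FOXP3-EGFP mice (strain C.Cg-Foxp3tm2Tch/J), in which a green fluorescent protein reports Foxp3, and the sort took cells positive for GFP, CD4, CD3 and CD45. Thermolysin split the skin into its layers, and only the dermis was then digested with collagenase, so digestion and layer cannot be told apart. Both skin libraries used the 10x 3′ kit of version 3; the sources used here do not give the number, sex or exact age of the mice.

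CD103 is the alpha E integrin chain. It pairs with the beta 7 chain (Itgb7), and the pair binds E-cadherin (Cdh1), which joins epithelial cells such as keratinocytes. TGF-beta, which cells release in a latent form that integrins such as alpha v beta 8 activate, induces CD103 in T cells, and CD103 marks T cells that settle in barrier tissue. Tregs need Foxp3 to hold back immune responses, and those of skin also carry genes of tissue repair and of type 2 immunity.

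With 1 library a side, cells of a library are not replicates, so no test between layers was run and no difference below has a replicate check. Each gene's UMIs were added up within a library's CD103-positive cells and scaled to the same total in both libraries (CPM, the usual per-million scale). Ratios are epidermis over dermis, with an exact 95% interval from the split of the UMIs, which covers counting error only. Genes are called higher or lower, and are said to be counted, at a difference of 2-fold or more and a level of 50 CPM or more in either library.

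Some barcodes were found in both skin libraries. There were 43 of them, with none shared by epidermis and lymph node and 1 by dermis and lymph node. The lymph node library was made with another kit version, so its counts give no baseline for sharing between the skin libraries. In 30 the larger copy had at least 5000 UMIs in epidermis, and the dermal copy held 7.09 to 8.60% of it. In 9 the larger copy was dermal, and the epidermal copy held 4.22 to 4.96%. They made up 21 of the epidermal and 9 of the dermal CD103-positive cells, and 3 and 8 of these were the smaller copy. Leaving out all shared barcodes thus removed mostly larger copies from epidermis. For the gene lists and genes that lead each result, values without the shared barcodes are given where they end a call or move a list.

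The libraries also differed in transcripts that mark sex. Xist without Y-linked UMIs was seen in 66 epidermal and 506 dermal CD103-positive cells, Y-linked UMIs without Xist in 48 and 34, both in 2 and 6, and neither in 30 and 37. Ratios within the Xist and the Y-linked cells are given for leading genes and for some others. Further genes named by rule also gained or lost a call in either or both of these subsets, without ratios given here. Among them are Cd69, Klrg1, Tgif1, Icam1, Tpi1, Il1r2, Tap1, Bnip3 and Fdps. The cells carried all 7 Treg markers, at a summed 7888 and 8345 CPM. A Foxp3 UMI was found in 39.0% of epidermal and 50.1% of dermal cells at full depth, and in 20.6% and 22.3% at 1500 UMIs per cell. Among markers of other cells, the Langerhans and dendritic list reached a sum of 700 and 571 CPM, with Cd74 alone at 554 and 389. The keratinocyte list summed to 114 and 101 CPM, but its genes differed in direction. Sfn, the largest part of that sum, stood at 55.9 and 86.6 CPM, and Krt1 at 0 and 0.639. Lgals7 (25.04 and 5.43 CPM), Krt10 (13.5 and 5.75), Krt17 (6.74 and 0.319) and Krt15 (4.81 and 0) were higher in epidermis. So were Krt5, Krt14 and Perp, at lower levels. The CD8 T and NK list summed to 19.3 and 19.2 CPM. The gamma-delta T cell list, with 4 of 10 genes in the table, summed to 4.81 and 0.639. The innate lymphoid list summed to 1762 and 2097 CPM, led by Areg, a gene that Tregs of skin also express. Itgax, Flt3 and Ccl22 of the dendritic list and Krtdap, Dsp and Ly6d of the keratinocyte list were at 0 in both. Of the dendritic list, H2-Ab1 (18.3 and 5.43 CPM), H2-Aa (10.6 and 3.51) and H2-Eb1 (11.6 and 6.07) were higher in epidermis. Epcam (76.1 and 139 CPM) and Xcr1 (0 and 1.60) were lower there. The part of such markers in the results was not tested. Median depth was 6231 UMIs in epidermis and 4884 in dermis, and median mitochondrial share 3.90% and 4.41%.

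The cells were chosen by their UMIs of Itgae and of the 4 resting genes, so the Itgae level is a description. It stood at 706 CPM in epidermis and 531 CPM in dermis. The median epidermal cell had 4 Itgae UMIs and the median dermal cell 2. A single Itgae UMI was the basis of membership in 10.96% of epidermal and 33.3% of dermal cells, and 58.2% and 30.02% had 4 or more. Just outside the rule lay 10 epidermal and 145 dermal cells with neither Itgae nor a resting gene, and 26 and 60 cells with Itgae and exactly 1 UMI of a resting gene. In all, a resting gene removed 55 epidermal and 85 dermal cells that had Itgae, most often through Lef1 (43 and 62 cells). Of cells without a resting gene, 93.6% in epidermis and 80.1% in dermis had Itgae at full depth, but 53.8% (46.8 to 60.6) and 45.9% (42.3 to 49.4) when each cell was thinned to 1500 UMIs. The whole rule was met by 53.9% and 69.6% of filtered cells at full depth, and by 43.5% and 44.2% after thinning. At equal depth the share meeting the whole rule was thus close between layers, while the ratio of the Itgae shares was not smaller.

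**Figure D1:**
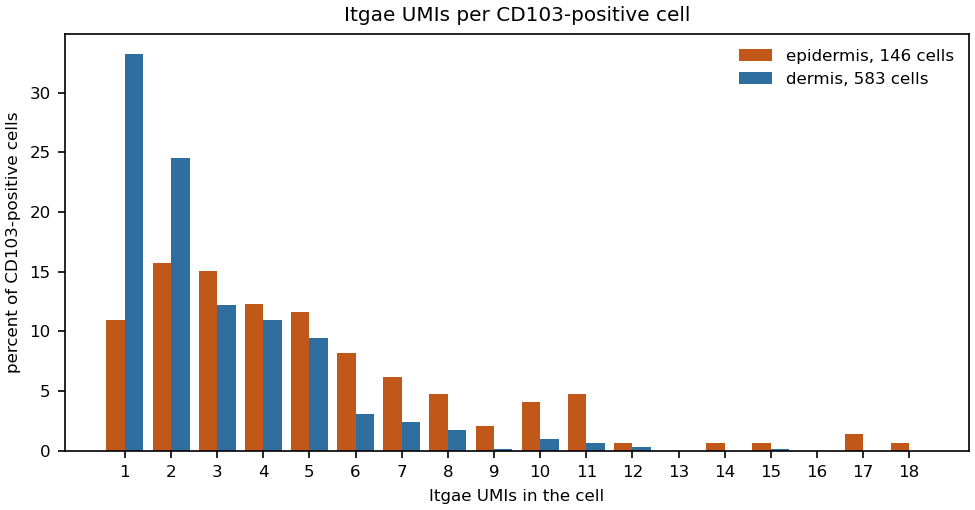
Itgae UMIs per CD103-positive cell (x axis) against the percent of the 146 epidermal or 583 dermal cells (y axis). Dermal cells pile up at 1 UMI (33.3%), while 58.2% of epidermal cells have 4 or more.

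Of 3222 genes with at least 50 CPM in 1 library, 106 (3.29%) were at least 2-fold higher in epidermal CD103-positive cells and 79 (2.45%) at least 2-fold lower, 185 (5.74%) in all. The median gene had a log2 ratio of 0.15. Other scalings moved that median: it was -0.06 under TMM, -0.04 under median-of-ratios scaling and 0.18 when mitochondrial and ribosomal protein genes were left out of the totals. The share of counted genes that were higher was 57.3%, and under these scalings 30.9%, 32.4% and 62.1%, so list medians are read against that of all genes. Without the shared barcodes 80 genes were higher and 74 lower, of which 64 and 63 were counted with them. With only their smaller copies left out, 109 were higher and 80 lower, of which 105 and 79 were counted in the main comparison. Of the 106 higher genes 99 had the same direction in both the Xist and the Y-linked cells, and of the 79 lower genes 77; 52 and 32 were counted in both. Ddx3y on the Y chromosome was among the higher and Xist among the lower genes.

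**Figure D2:**
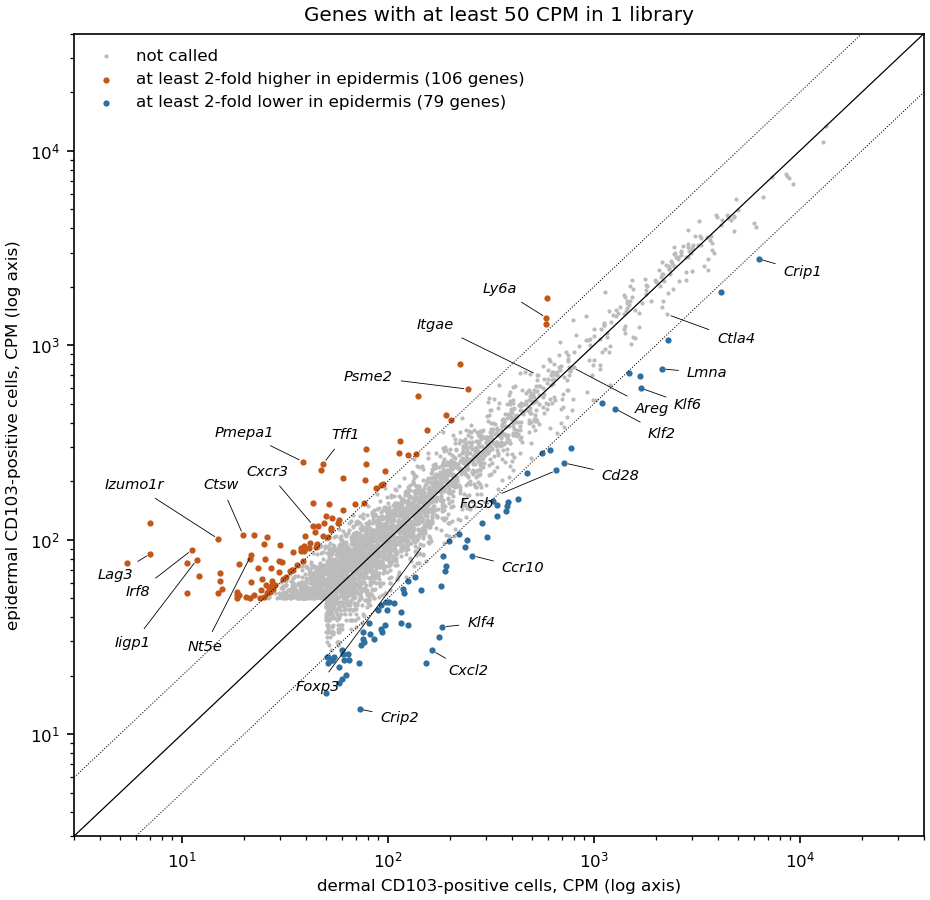
CPM of each gene in dermal (x axis) and epidermal (y axis) CD103-positive cells, both on log axes, for genes with at least 50 CPM in 1 library. Orange and blue points lie outside the dotted 2-fold lines (106 and 79 genes); Pmepa1 and Lag3 lie far above, Klf4 and Ccr10 far below, and Areg close to the solid line of equal CPM.

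Among partners of CD103 and genes of the TGF-beta pathway, Furin, Tgfbr1 and Pmepa1 were counted as higher in epidermis and none as lower. Itgb7, the partner chain, stood at 442 CPM in epidermis and 452 CPM in dermis (ratio 0.98, 0.88 to 1.09). Cdh1, the ligand, had no UMI in either set, which allows up to 2.89 CPM in epidermis and 0.958 CPM in dermis. Tgfb1 stood at 323 and 310 CPM and Itgb8, the beta chain of the activating integrin, at 91.5 and 85.3 CPM, with ratios of 1.04 (0.92 to 1.18) and 1.07 (0.84 to 1.36). Its partner Itgav was lower without reaching 2-fold, at 195 and 250 CPM (ratio 0.78, 0.66 to 0.91). Furin, a protease that cleaves the TGF-beta precursor, stood at 246 CPM against 78.6 CPM (ratio 3.12, 2.61 to 3.74). For Furin 5 cells held 61.2% of the epidermal UMIs, and its log2 ratio of 1.64 was 1.88 in Xist cells and -0.03 in Y-linked cells.

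Pmepa1 showed the clearest difference of this group. It is a target of TGF-beta signalling whose product feeds back on the receptor complex (chromosome 2, 173224458 to 173276533, mm10). It stood at 252 CPM (223 to 285) in epidermis and 38.7 CPM (32.1 to 46.2) in dermis, a ratio of 6.53 (5.24 to 8.16). With cells thinned to 1500 UMIs, a share of 27.7% in epidermis (exact 95% interval 20.5 to 35.8) and 4.18% of dermal cells (2.70 to 6.16) had a Pmepa1 UMI, and 53.4% and 12.7% at full depth. Both libraries held sorted Tregs, so no cell type that should lack a gene gave a background share. The log2 ratio of 2.71 was 2.80 in Xist cells, 1.55 in Y-linked cells and 2.48 without shared barcodes. In filtered cells with a resting gene UMI, which are not members, Pmepa1 stood at 77.5 and 63.2 CPM.

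The type I receptor Tgfbr1 stood at 185 and 87.5 CPM (ratio 2.11, 1.75 to 2.55), and the type II receptor Tgfbr2 at 73.2 and 37.4 CPM (1.96, 1.45 to 2.64), which was not counted. Tgfbr1 kept its call under 15 of 20 settings; it lost it under TMM and median-of-ratios scaling and in Xist cells (log2 0.94, against 1.41 in Y-linked cells), among others. Without shared barcodes the log2 ratio of Tgfbr2 was 1.07, past 2-fold. Other response genes varied. Skil, a repressor that TGF-beta induces, stood at 224 and 131 CPM (ratio 1.71, 1.45 to 2.01), Smad7, an inhibitor in the pathway, stood at 622 and 618 CPM, and the repressor Tgif1 was lower at 144 and 249 CPM (ratio 0.58). Of the 8 receptor and response genes at 50 CPM, 2 were higher and none lower, against 3.29% and 2.45% of all genes. The median log2 ratio of 0.01 over 11 measured genes was below the 0.15 of all genes. Integrins and adhesion genes had none of 9 counted either way and a median of 0.22; Icam1, an adhesion ligand, had the largest ratio among those 9 (208 and 134 CPM, 1.55).

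Genes of Treg identity split in direction. Izumo1r, the gene of folate receptor 4 on Tregs, stood at 101 CPM against 15.01 CPM (ratio 6.73, 4.73 to 9.71), and its log2 ratio was 2.02 in Xist and 4.83 in Y-linked cells. Of its epidermal UMIs, 55.2% lay in 5 cells. Nt5e encodes CD73, which makes adenosine; it stood at 83.8 and 21.7 CPM (3.86, 2.78 to 5.38). Ikzf4, the transcription factor Eos that works with Foxp3, stood at 152 and 51.8 CPM (2.94, 2.35 to 3.68), and at 1500 UMIs it was seen in 20.6% (14.2 to 28.2) of epidermal and 7.14% (5.17 to 9.57) of dermal cells. The interleukin 2 receptor chains Il2ra (530 and 327 CPM, 1.62) and Il2rb (190 and 114 CPM, 1.67) were higher without reaching 2-fold. Ikzf2, the factor Helios, was near equal at 1650 and 1713 CPM.

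Foxp3 itself went the other way, at 94.4 CPM in epidermis and 149 CPM in dermis (ratio 0.63, 0.51 to 0.79), below 2-fold. Its log2 ratio of -0.66 ranged from -0.86 to 0.064 over the alternatives, so its direction did not hold under all of them. Ctla4, an inhibitory receptor that binds the same ligands as Cd28, stood at 1443 and 2267 CPM (0.64, 0.60 to 0.67), and the costimulator Icos at 1013 and 1513 CPM (0.67). Of the 11 Treg core genes at 50 CPM, 3 were counted as higher and none as lower, against 3.29% and 2.45% of all genes. Their median was 0.22, close to all genes. Izumo1r and Nt5e were also higher in the epidermal cells with a resting gene UMI, at 334 against 71.6 CPM and 81.1 against 35.8 CPM.

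Interferon-induced GTPases had the highest share of counted genes among the 28 lists, all of them higher in epidermal CD103-positive cells. Of 10 interferon-induced GTPases at 50 CPM, 8 were counted as higher and none as lower, against 3.29% of all genes, and the median log2 ratio over 14 measured genes was 1.35. These proteins, the IRG and GBP families, attack the vacuoles of intracellular pathogens. Iigp1 stood at 79.0 and 11.8 CPM (ratio 6.68, 4.48 to 10.1), Irgm1 at 75.1 and 18.8 CPM (3.98, 2.81 to 5.69), Gbp5 at 79.9 and 21.4 CPM (3.73, 2.67 to 5.23) and Ifi47 at 207 and 60.4 CPM (3.43, 2.81 to 4.19). Igtp (280 and 113 CPM), Gbp3 (132 and 49.8), Gbp6 (71.3 and 27.2) and Gbp2 (69.3 and 33.5) had ratios of 2.07 to 2.65. Gbp7 and Gbp4 had 1.95 and 1.62 and were not counted. GBP genes resemble each other and Gbp6 has 2 identifiers in the gene table, so reads may be split among copies.

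The GTPase median stayed between 1.10 and 1.53 under every alternative run. It was 1.47 in Xist cells, 1.38 in Y-linked cells, 1.41 without shared barcodes and 0.18 in the cells with a resting gene UMI. In cells with neither Itgae nor a resting gene, also not members, the GTPase median was 1.21 and that of all genes 0.83. That set held only 10 epidermal cells. Per cell, the list took a median 0.104% of UMIs in epidermis and 0.0440% in dermis. The 90th percentile over cells was 0.405% and 0.136%.

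Genes of the interferon response outside the GTPase families were also among the higher ones. Irf8, an interferon regulatory factor, stood at 88.6 and 11.2 CPM (7.92, 5.31 to 12.1), with 48.9% of its epidermal UMIs in 5 cells. The nucleic acid sensor Zbp1 (105 and 39.6 CPM, 2.65) and the surface protein gene Ly6a (1385 and 589 CPM, 2.35) were also counted. Ly6a stood at 524 and 616 CPM in cells with a resting gene UMI. The apolipoprotein gene Apol9b, with ratio 4.40 (3.001 to 6.49), is on no list.

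Genes of the type I interferon list were mostly higher in epidermis, but most of those at 50 CPM did not reach 2-fold. Of 19 measured, 18 had a ratio above 1, and the median log2 ratio was 0.77. Of 12 at 50 CPM, 4 were higher, among them Irf8, Zbp1 and Ly6a, and none lower, against 3.29% and 2.45% of all genes. Isg15, a ubiquitin-like modifier, stood at 69.3 and 59.4 CPM, with an interval of its ratio from 0.88 to 1.54. Irf7, the 1 measured gene with a ratio below 1, stood at 27.9 and 28.1 CPM. Ifit1 (12.5 and 2.88 CPM) and Ifit3 (16.4 and 3.51 CPM) lay under the level for counting.

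Genes of MHC class I presentation had a median of 0.58, with 3 of 14 higher and none lower, against 3.29% and 2.45% of all genes. The 3 were Psmb9, a subunit of the immunoproteasome (322 and 114 CPM, 2.81, 2.42 to 3.27), Psme2 of its activator (595 and 245 CPM, 2.43, 2.18 to 2.71) and the peptide transporter Tap1 (275 and 137 CPM, 2.005, 1.72 to 2.33). Tap1 lay at the threshold and kept its call under 11 of 20 settings. The class I heavy chains H2-K1 and H2-D1 had log2 ratios of 0.26 and -0.07.

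Promoters of some counted interferon genes are shown as examples, because the group moved together. The genes, windows and marked motif were chosen after the calls, and each printed window holds a match. Other counted genes, such as Iigp1, Ifi47 and Zbp1, are not printed. Sequences are RefSeq promoters of GRCm38.p6, 5′ to 3′ on the gene's strand. Capitals mark GAAANNGAAA, the core of the interferon-stimulated response element bound by interferon regulatory factors, or TTCNNNGAA, the GAS motif of genes induced by interferon gamma, each searched on both strands. In each line capitals mark the motif named on it, and any match to the other motif is left in lower case. The windows lie upstream of the RefSeq start and outside annotated exons, except that of Irgm1, which lies in an exon of a noncoding Irgm1 transcript.
Irgm1, chr11:48871421-48871520, minus strand, response element: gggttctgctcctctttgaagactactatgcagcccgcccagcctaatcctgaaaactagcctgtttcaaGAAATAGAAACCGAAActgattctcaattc
Igtp, chr11:58199456-58199555, plus strand, response element: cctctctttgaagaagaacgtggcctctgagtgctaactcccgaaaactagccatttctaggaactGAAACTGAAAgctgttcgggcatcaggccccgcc
Gbp3, chr3:142559944-142560025, plus strand, response element: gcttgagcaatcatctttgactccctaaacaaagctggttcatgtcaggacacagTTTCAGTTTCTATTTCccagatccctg
Gbp5, chr3:142496684-142496899, plus strand, GAS: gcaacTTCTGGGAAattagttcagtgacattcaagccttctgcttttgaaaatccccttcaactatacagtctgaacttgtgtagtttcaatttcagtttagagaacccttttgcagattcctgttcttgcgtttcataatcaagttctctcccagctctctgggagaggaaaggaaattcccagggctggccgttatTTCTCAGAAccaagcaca
Irf8, chr8:120736108-120736357, plus strand, GAS: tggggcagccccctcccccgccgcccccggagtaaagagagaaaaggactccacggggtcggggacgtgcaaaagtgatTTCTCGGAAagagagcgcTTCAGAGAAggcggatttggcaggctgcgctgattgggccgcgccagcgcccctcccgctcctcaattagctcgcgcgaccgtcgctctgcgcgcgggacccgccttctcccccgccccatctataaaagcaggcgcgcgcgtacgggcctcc

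In Irgm1 and Gbp3, 2 overlapping copies of the response element merge into 1 run of capitals; they begin 30 and 24 bases before the start in Irgm1, and 45 and 39 in Gbp3. The whole windows searched ran from 250 bases before to 50 after the start. The response element was found in 9 of 10 GTPase genes with a promoter in the table, against 3.99% of 27025 genes, and the GAS motif in 6 of 10 against 9.55%. Among genes counted as higher, 10 of 77 with a promoter held the response element. Of 16 type I interferon genes with a promoter, 7 held the response element and 7 the GAS motif. Of 14 MHC class I genes with a promoter, 4 held the response element and 1 the GAS motif. A match describes letters only and does not show that a factor binds there.

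Lag3, Penk and Ccl4 had the epidermal UMIs of their high ratios in few cells. Lag3, an inhibitory receptor that binds MHC class II (chromosome 6, 124904361 to 124911705), stood at 84.7 CPM (68.0 to 104) and 7.03 CPM (4.40 to 10.6), a ratio of 12.1 (7.49 to 20.2). Its log2 ratio of 3.59 was 3.80 in Xist cells, 2.89 in Y-linked cells and 3.24 without shared barcodes. Yet 68.2% of the epidermal UMIs lay in 5 cells, and at 1500 UMIs 6.38% of epidermal and 1.05% of dermal cells had one. Penk, which encodes opioid peptides, stood at 76.1 and 5.43 CPM with 83.5% of the epidermal UMIs in 5 cells. The chemokine gene Ccl4 stood at 121 and 7.03 CPM with 97.6% in 5 cells. Both ratios, 14.01 and 17.3, thus describe a handful of cells.

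Tff1, a trefoil peptide of mucosal repair, stood at 247 and 48.6 CPM (5.08, 4.14 to 6.25) and was present in 12.1% and 4.01% of cells at 1500 UMIs. Of its epidermal UMIs, 56.6% lay in 5 cells. Ctsw, a protease of cytotoxic lymphocytes, stood at 106 and 19.8 CPM (5.35, 3.88 to 7.42) and was present in 17.0% and 2.79% of cells at 1500 UMIs. Il1r2, a decoy receptor for interleukin 1, had 90.5 and 41.2 CPM (2.20, 1.67 to 2.89) and kept its call under 14 of 20 settings, not under TMM or median-of-ratios scaling. Tnfrsf9, a TNF receptor member, stood at 414 and 203 CPM (2.04).

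Other mediators did not differ by 2-fold. Il10, an anti-inflammatory cytokine, stood at 115 and 130 CPM (ratio 0.88, 0.71 to 1.08), Fgl2 at 367 and 353 CPM and Gzmb at 494 and 432 CPM. Areg, the repair factor amphiregulin, stood at 770 and 787 CPM (0.98, 0.90 to 1.06). This equality joined opposite values: the log2 ratio was 0.78 in Xist cells and -1.53 in Y-linked cells, and 53.0% of the epidermal UMIs lay in 5 cells. Of the effector and tissue Treg list 4 of 15 genes were higher and 1 lower, and of the type 2 and interleukin 33 list none of 5. Of all genes 3.29% were higher and 2.45% lower. The median of the type 2 list was -0.29, and 0.09 when the rule was applied after thinning, with the transcription factor Gata3 at 254 and 400 CPM (0.64, 0.56 to 0.73) and the interleukin 33 receptor Il1rl1 at 121 and 142 CPM (0.86, 0.70 to 1.05). Rora, a nuclear receptor of tissue lymphocytes, stood at 429 and 745 CPM (0.58), and the lectin Klrg1 at 145 and 243 CPM (0.60).

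Cd28, the main costimulatory receptor, was lower in epidermis (chromosome 1, 60716800 to 60773359). It stood at 248 CPM (219 to 281) against 717 CPM (688 to 747) in dermis, 2.89-fold lower (2.54 to 3.30). At 1500 UMIs 29.8% of epidermal cells (22.4 to 38.1) and 55.7% of dermal cells (51.6 to 59.9) had a Cd28 UMI, and 66.4% and 82.0% at full depth. The log2 ratio was -1.53 in all cells, -1.47 in Xist cells, -1.63 in Y-linked cells and -1.44 without shared barcodes. Cells with a resting gene UMI had 274 and 696 CPM.

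Homing receptors differed in opposite directions. Ccr10 directs T cells to skin through a keratinocyte chemokine (chromosome 11, 101172997 to 101175443); it stood at 82.8 CPM (66.2 to 102) and 257 CPM (240.0 to 276), 3.11-fold lower in epidermis (2.49 to 3.93). The log2 ratio of Ccr10 was -2.04 in Xist and -1.48 in Y-linked cells. The leukotriene receptor Ltb4r1 was also lower (53.0 and 119 CPM, ratio 0.44). Cxcr3, a receptor for interferon-induced chemokines, was higher at 118 and 43.4 CPM (2.73, 2.12 to 3.50). Ccr8 (62.6 and 50.8 CPM, 1.23, 0.91 to 1.65) and Ccr4 (36.6 and 50.8 CPM, 0.72, 0.49 to 1.03) had intervals that include 1. For Ccr4 the log2 ratio was -1.40 in Xist and 1.13 in Y-linked cells, that of Ccr8 0.80 and -0.42.

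The tissue residency list had a median of -0.47, with 3 of 9 genes lower and 1 higher, against 2.45% and 3.29% of all genes. The lower ones were Vps37b (103 and 303 CPM, 0.34), the orphan nuclear receptor Nr4a2 (27.0 and 59.7 CPM, 0.45) and the cAMP factor Crem (98.2 and 198 CPM, 0.50). Nr4a2 and Crem kept their calls under 11 of 20 settings each and lost them after thinning and without shared barcodes, where the list median was -0.21. With only the smaller copies of these barcodes left out the list median was -0.48. The log2 ratio of Vps37b was -1.64 in Xist and -0.99 in Y-linked cells, that of Nr4a2 -0.47 and -1.38, and that of Crem -1.10 and -0.70. Cxcr6, a receptor of resident T cells, was the higher one at 78.0 and 29.7 CPM (2.63, 1.92 to 3.57), with 56.8% of its epidermal UMIs in 5 cells. Cd69, which holds T cells in tissue, stood at 705 and 977 CPM (0.72, 0.67 to 0.78). This list's median was 0.08 in cells with at least 4 Itgae UMIs and 0.04 with no limit on the resting genes, and the log2 ratio of Cxcr6, 1.39, was -0.19 when the rule was applied after thinning and 0.32 in Y-linked cells.

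Immediate early genes were lower in epidermal CD103-positive cells. This group is induced within minutes of stimulation or of handling stress. Of 26 genes at 50 CPM, 8 were lower and none higher, against 2.45% of all genes, and the median log2 ratio over 30 was -0.60. Fosb, an AP-1 subunit, stood at 227 and 657 CPM (0.35, 0.30 to 0.40), Fos at 696 and 1678 CPM (log2 -1.27) and Jund at 1887 and 4156 CPM (log2 -1.14). The phosphatase gene Dusp1 stood at 1069 and 2301 CPM, and the phosphatase regulator Ppp1r15a at 156 and 384 CPM. Atf3 stood at 26.0 and 60.4 CPM, with 85.2% of its epidermal UMIs in 5 cells. Jun went the other way without reaching 2-fold (172 and 125 CPM, ratio 1.38, 1.15 to 1.66), and Ier2 had a log2 ratio of -0.08. Of the Krüppel-like factors, Klf4 stood at 35.6 and 184 CPM, 5.16-fold lower (3.70 to 7.398), Klf6 at 603 and 1689 CPM, 2.80-fold lower (2.58 to 3.05), and Klf10 at 112 and 140.0 CPM (ratio 0.80), not counted. The log2 ratio of Ppp1r15a, -1.30, was -0.88 in Xist and -2.19 in Y-linked cells.

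The list took a median 1.48% of a cell's UMIs in epidermis and 2.37% in dermis, and the interquartile ranges of both sets, 0.892 to 2.41% and 1.68 to 3.11%, overlapped. The list's median log2 ratio was -0.37 in Xist cells, -0.91 in Y-linked cells, -0.31 without shared barcodes and -1.40 in cells with a resting gene UMI. It was -0.27 with each cell thinned to 1500 UMIs, -0.23 with the rule applied after thinning and -0.34 as the mean of each cell's CPM. Collagenase digestion was confined to dermis, and its part in this difference was not tested. Klf2, a factor that keeps T cells circulating and that also responds to handling, stood at 473 and 1264 CPM (0.37, 0.34 to 0.41). Its log2 ratio was -1.56 in Xist and -0.89 in Y-linked cells. With each cell thinned to 1500 UMIs, Fosb, Ppp1r15a and Klf2 lost their calls.

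The promoter of Ppp1r15a was chosen after the calls because it holds the cAMP response element TGACGTCA (capitals, 12 bases before the start), a site of the Creb and Atf factors. The part of these factors in the difference was not tested.
Ppp1r15a, chr7:45526269-45526329, minus strand: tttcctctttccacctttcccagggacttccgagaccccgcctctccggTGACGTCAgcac

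This element was found in 4 of 27 immediate early genes with a promoter, in 5 of 60 genes counted as lower, in none of 77 counted as higher and in 2.03% of all genes.

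Heat shock genes had a median of -0.22, with 3 of 14 lower, against 2.45% of all genes. The lower ones were the inducible chaperones Hspa1a (23.1 and 153 CPM, ratio 0.15), Hspa1b (31.8 and 178 CPM, 0.18) and Hspb1 (43.3 and 99.4 CPM, 0.44). The first pair is nearly identical in sequence, so reads may be split between them. For Hspa1a 5 dermal cells held 55.2% of the UMIs, and the Hspa1b log2 ratio of -2.49 was 0.87 in Y-linked cells. That of Hspa1a, -2.73, was -1.90 in Xist and -0.87 in Y-linked cells, and that of Hspb1, -1.20, was -0.94 and -0.74. The constitutive chaperones Hspa8 (1767 and 1534 CPM) and Hsp90ab1 (1502 and 1429 CPM) were near equal.

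Lmna and Crip1 were the genes counted as lower among S100, annexin, galectin and related structural genes. The S100, annexin and galectin list had a median of -0.44, with 2 of 15 lower and none higher, against 2.45% and 3.29% of all genes. Lmna, the gene of nuclear lamin A (chromosome 3, 88480147 to 88509956), stood at 757 CPM (705 to 812) against 2138 CPM (2087 to 2190), 2.83-fold lower (2.62 to 3.05). At 1500 UMIs 48.2% of epidermal and 84.1% of dermal cells had a Lmna UMI, and 82.2% and 94.9% at full depth. Crip1, a LIM domain protein, stood at 2783 and 6305 CPM, 2.27-fold lower; its relative Crip2 stood at 13.5 and 72.8 CPM, 5.40-fold lower (3.16 to 10.0). The intermediate filament Vim (4037 and 6114 CPM, 0.66) and S100a6 (log2 -0.50) were lower without reaching 2-fold. The list took a median 1.78% of UMIs in epidermis and 3.18% in dermis, and its median was between -0.63 and -0.35 under every alternative. Cells with a resting gene UMI had a list median of -1.13.

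**Figure D3:**
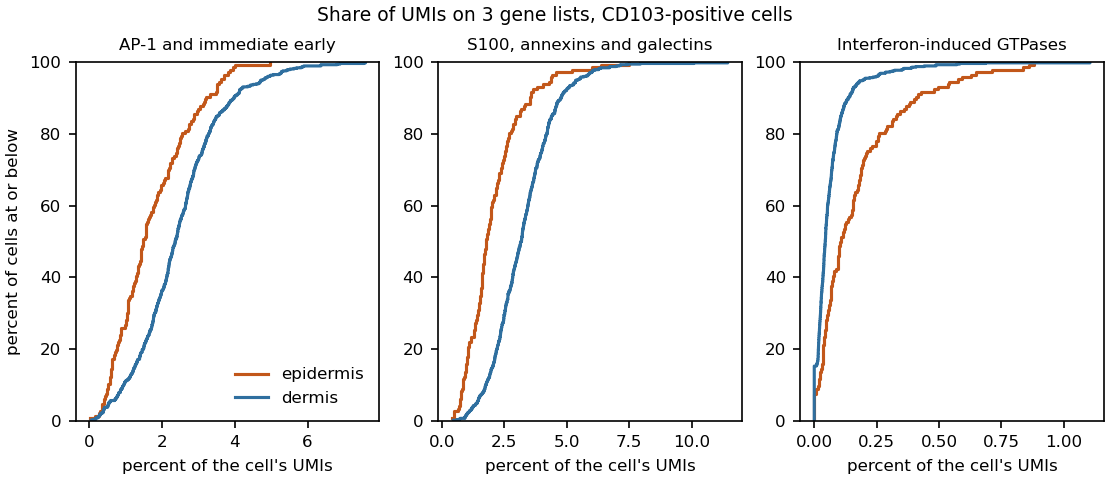
Cumulative percent of CD103-positive cells (y axis) at or below a given percent of the cell's UMIs on 3 gene lists (x axes), for epidermis (orange) and dermis (blue). The epidermal curve lies left of the dermal one for immediate early genes (medians 1.48% and 2.37%) and S100 genes (1.78% and 3.18%), and right of it for interferon-induced GTPases (0.104% and 0.0440%).

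Metabolic lists had 3 counted genes among them. Glycolysis and hypoxia had a median of 0.45 with 2 of 20 higher, against 3.29% of all genes. Pgk1, a glycolytic enzyme, was one at 293 and 77.9 CPM (3.76, 3.16 to 4.46), although 37.5% of its epidermal UMIs lay in 5 cells, and the mitophagy receptor Bnip3 the other (53.9 and 18.5 CPM, 2.91), whose call held under 10 of 20 settings and not without shared barcodes, where it stood at 43.4 CPM in epidermis. Ldha (718 and 437 CPM) and Tpi1 (356 and 186 CPM) did not reach 2-fold, and Hif1a, the hypoxia factor itself, stood at 292 and 377 CPM. Pgk1 and Tpi1 have processed pseudogenes that could share reads. For oxidative phosphorylation none of 24 genes were counted and the median was 0.26, and lipid and sterol genes 0.40 with 1 of 5 higher (Fdps of sterol synthesis, 50.1 and 21.4 CPM, log2 1.23, but -1.59 when the rule was applied after thinning). The Fdps call held under 6 of 20 settings, and without shared barcodes its log2 ratio was 0.69 and the lipid list median 0.08. With only the smaller copies of these barcodes left out the lipid list median was 0.39.

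The DNA replication and mitosis list had the highest median, 1.47, with 6 of 12 higher, against 3.29% of all genes. This list's difference rested on few cells. Stmn1, a tubulin regulator, stood at 229 and 47.6 CPM with 85.3% of its epidermal UMIs in 5 cells, and Mki67, a marker of cycling cells, at 106 and 22.4 CPM with 77.3%. Cells with at least 3 UMIs of cycling genes numbered 12 of 146 and 23 of 583. Without the shared barcodes the list median was -0.10, against 1.57 with only their smaller copies left out. Without all of them the log2 ratio of Stmn1 went from 2.27 to -2.52 and that of Top2a from 1.84 to -1.06. That of Mki67 went from 2.24 to 0.49. Without the cycling cells the list median was 0.34.

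Genes of lymphoid homing and resting cells other than the rule's had a median of 0.63. Of 16 at 50 CPM, 4 were higher and 1 lower, against 3.29% and 2.45% of all genes. The higher ones were the lymphotoxin gene Ltb (1294 and 589 CPM, 2.20), Slfn2, which guards T cell quiescence (204 and 77.6 CPM, 2.63, 2.18 to 3.17), Gimap3 (129 and 53.4 CPM, 2.42) and Gimap4 (55.9 and 15.7 CPM, 3.57), both of a GTPase family of lymphocyte survival. The lower one was Klf2. Of the epidermal Gimap4 UMIs, 58.6% lay in 5 cells. For Gimap3 the log2 ratio of 1.27 was 0.95 in Xist and 0.43 in Y-linked cells. The list median was 0.12 in Xist cells and 0.44 in Y-linked cells, and the Gimap4 log2 ratio of 1.84 was -0.31 and 2.90. Ccr7 and S1pr1, which guide T cells to and out of lymph nodes, had log2 ratios of -0.29 and 0.64.

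The remaining lists had few counted genes, against 3.29% of all genes higher and 2.45% lower. T cell receptor signalling (median 0.14), NF-kB and its feedback genes (0.13), other cytokine receptors (0.08) and cytokines and suppressive mediators (0.19) had none counted of 15, 18, 12 and 5. The BCL2 family had none of 7 counted and a median of -0.16, which was above 0 in Y-linked cells (0.06). Of 9 costimulatory and co-inhibitory receptors Lag3 was higher and Cd28 lower (median -0.12), and of 5 TNF receptor genes the death receptor Tnfrsf10b was lower (25.04 and 50.5 CPM), a call that held under 9 of 20 settings. Of 7 granule genes Ctsw and Nkg7 were higher (median 0.09). Of 13 chemokine and lipid receptors 1 was higher and 2 lower (median -0.01), of 4 chemokines Ccl4 was higher and Cxcl2 lower (27.0 and 164 CPM; list median 0.58, but -0.32 in Y-linked cells), and of 4 genes of TGF-beta production Furin was higher (median 0.08).

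**Figure D4:**
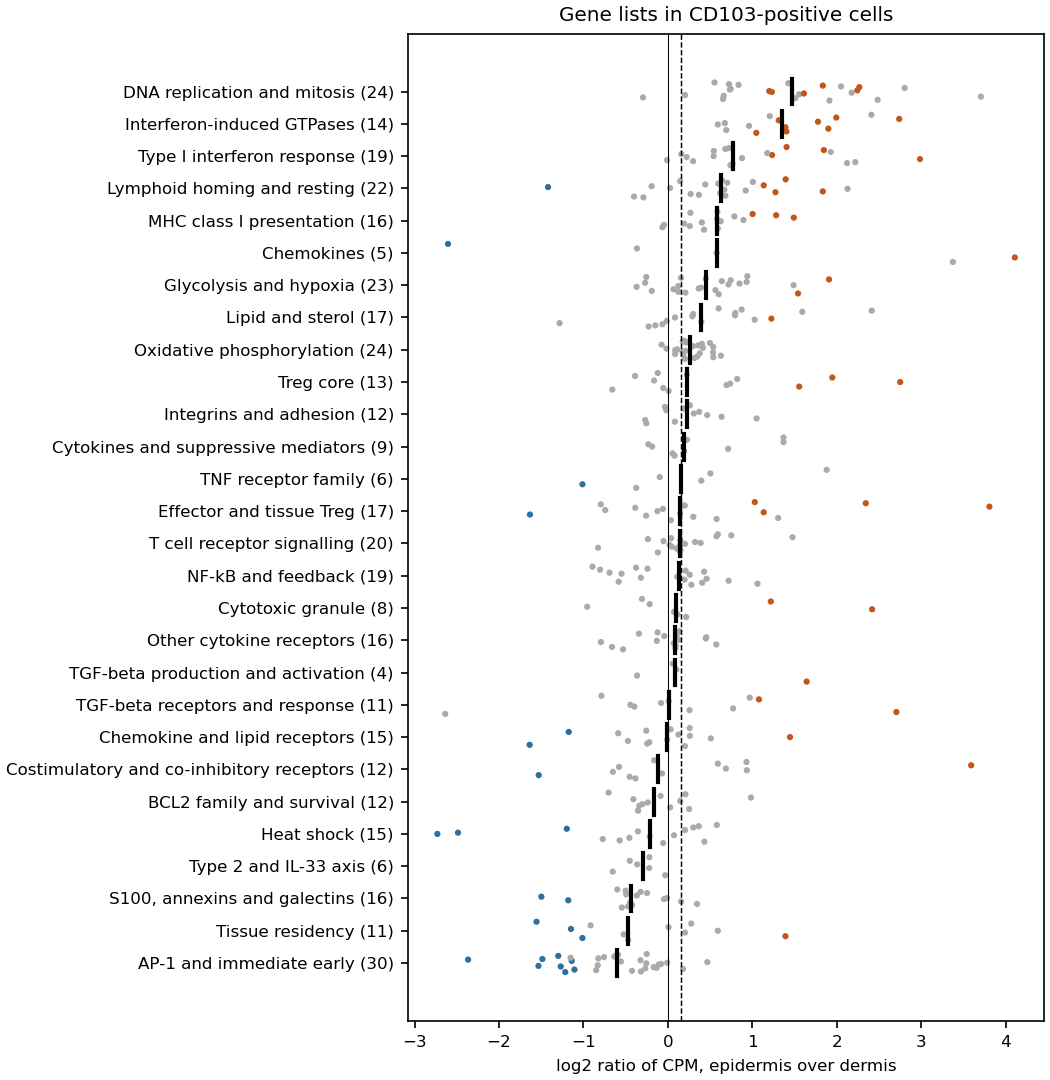
Log2 ratio (x axis) of each gene with at least 10 CPM in the 28 lists (y axis, number measured in brackets); black bars are list medians, the dashed line is the median of all genes (0.15), orange and blue points are counted genes. Interferon-induced GTPases stand at 1.35 with no gene below 0, and immediate early genes at -0.60.

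Itgae UMIs per cell were more numerous in epidermis, so the layers were also compared in cells with at least 4 Itgae UMIs, 85 in epidermis and 175 in dermis, where Itgae itself stood at 868 and 851 CPM. There 143 genes were higher and 106 lower, and 79 and 67 of the genes counted above were among them. The log2 ratio of Pmepa1 was 2.69, of Lag3 4.05 and of Ikzf4 2.22. Cd28 had -1.51, Lmna -1.48, Klf6 -1.47 and Ccr10 -2.15. Each of these kept the direction it had in all CD103-positive cells.

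**Figure D5:**
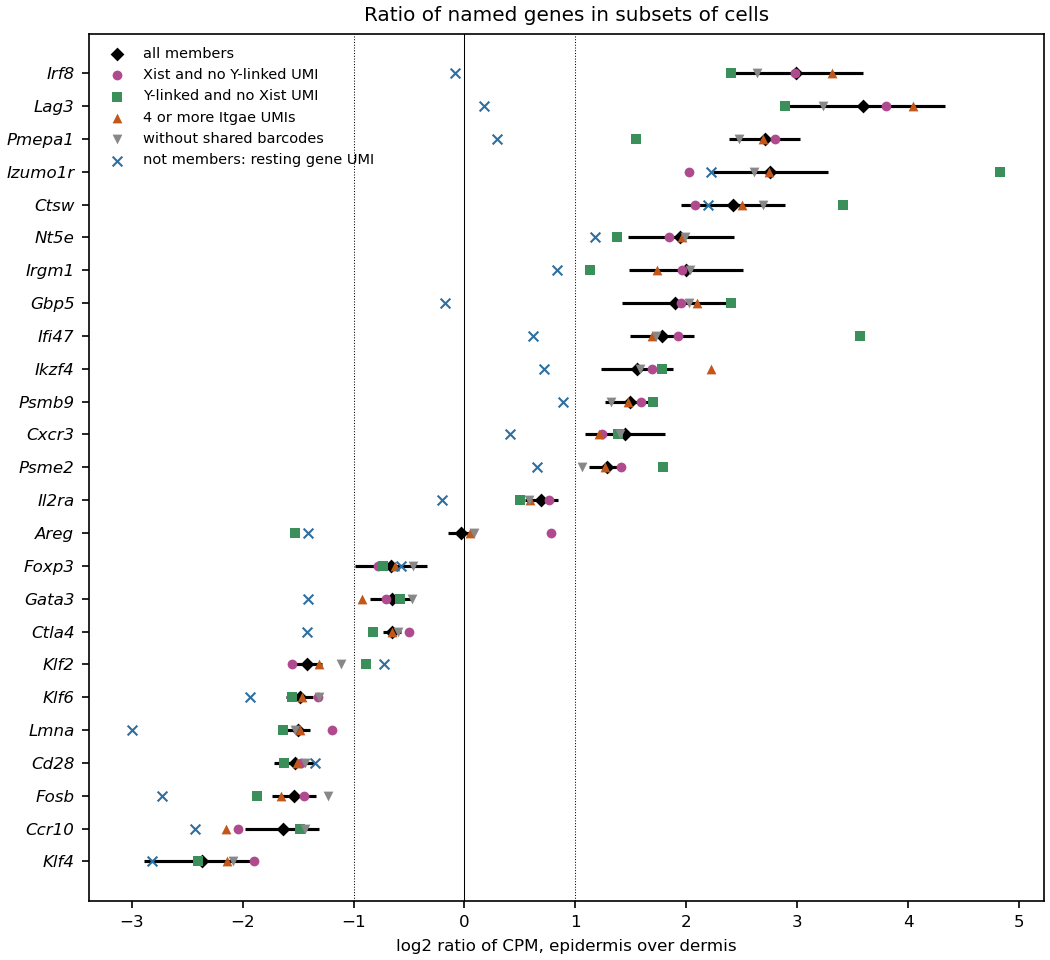
Log2 ratio (x axis) of 25 named genes in all CD103-positive cells (diamonds, bars for the 95% counting interval), in subsets of them, and in filtered cells with a resting gene UMI (crosses). Irf8, Lag3 and Pmepa1 are above 1 in each subset of members and between -0.08 and 0.29 in the cells with a resting gene UMI; Areg lies on opposite sides of 0 in Xist (0.78) and Y-linked (-1.53) cells.

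Within dermis, Itgae level went with few other genes. Dermal cells with at least 4 Itgae UMIs (175) were set against those with exactly 1 (194), and of 3016 genes 10 (0.332%) were at least 2-fold higher and 4 (0.133%) lower. Il1r2 stood at 58.0 against 17.6 CPM (3.30, 1.87 to 6.23), Tff1 at 71.2 against 30.4 CPM (2.34, 1.49 to 3.79), Cxcl2 at 273 against 117 CPM and Ccl5 at 147 against 72.6 CPM. Between the layers Il1r2 and Tff1 were higher in epidermis, while Cxcl2 was lower there. The lower ones were Stmn1, Plk4, Lpar6 and Fbxl14. Richer cells were also deeper, with median depths of 5707 and 4150 UMIs.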

How the data were processed

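RNA of sorted Tregs was counted with the 10x 3′ assay, and the deposited files hold raw UMI counts per gene and barcode; Cell Ranger 4.0.0 made them, per the file headers, with build mm10, per the submitters' processing notes. Barcodes were kept with at least 500 UMIs, 300 genes, at most 10% mitochondrial UMIs and at least 2 UMIs over Cd3d, Cd3e, Cd3g and Cd4. The CD103 rule, the gene lists and the tests were chosen with earlier results of these data known. UMIs were summed per library and scaled to CPM in Python 3.11.15 (pandas 2.3.3), with exact binomial intervals from scipy 1.17.1. List medians used genes with at least 10 CPM in 1 library. Shares of cells were compared after thinning each cell to 1500 UMIs, which left out 5 epidermal and 9 dermal cells. A floor of 3 counts stands for a count of 0. Scrublet in scanpy 1.11.5 marked 12 filtered cells per skin library, of which 4 and 9 were CD103-positive; they were kept, and removed as an alternative. TMM factors came from edgeR 4.0.16. The steps were tested on simulated data.

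Named genes were a fixed set of known Treg, integrin and homing genes, the 12 highest and 12 lowest ratios among genes seen in at least 10% of cells of the higher library (leaving out the rule's genes, mitochondrial, ribosomal, predicted, receptor segment and sex-linked genes and markers of other cells), and up to 4 genes per list with the largest difference. Others named, such as Skil, Fos or Isg15, were chosen after their values were seen. The lymph node library, made with another kit version, entered no comparison. A gene that was measured and counted in the lists is not reported here.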

Additional observations from a re-analysis of the deposited data

How the results depend on the processing

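No paired analysis was possible because each tissue had 1 library. Against 106 higher and 79 lower genes, the counts were 60 and 134 under TMM scaling, 61 and 127 under median-of-ratios scaling, 256 and 124 with each cell thinned to 1500 UMIs, 271 and 183 with the rule applied after thinning, 284 and 137 at a level of 20 CPM, 47 and 47 at 100 CPM, and 163 and 127 in cells with a Foxp3 UMI. In Xist cells 161 genes were higher, and in Y-linked cells 446 were higher and 200 lower, over 48 and 34 cells only. Other alternatives moved both counts by less than 1.5 times. Subsets by Xist, Y-linked transcripts, shared barcodes and Itgae level were chosen after seeing the data.

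Of 28 list medians 19 changed sign under at least 1 alternative, and of 135 gene ratios 38. Of these, 5 medians had a stated direction and 7 ratios had a call. Foxp3, given above as lower without a call, ranged from -0.86 to 0.064. The 5 medians and 7 ratios follow. The type 2 list went from -0.29 to 0.089 and the BCL2 list from -0.16 to 0.10 when the rule followed thinning, as did Cxcr6 (-0.19) and Fdps (-1.59). The residency list was 0.037 without the limit on resting genes and 0.078 at 4 or more Itgae UMIs. The chemokine list was -0.082 in cells with a Foxp3 UMI and -0.32 in Y-linked cells, where the BCL2 list was 0.055, Hspa1b 0.87 and Furin -0.031. Gimap4 was -0.31 in Xist cells. Without shared barcodes the replication list was -0.10, Stmn1 -2.52 and Top2a -1.06, and Top2a was -0.81 without cycling cells. The replication list was 1.57 with only the smaller copies of shared barcodes left out. The cause was not tested. With 146 epidermal cells, genes under 50 CPM rest on few UMIs.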

Other observations

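The 358 lymph node cells that met the same rule were made with another kit version, so their levels are given as values only. They had 795 CPM of Izumo1r, 94.2 of Nt5e, 89.7 of Lag3, 81.7 of Penk and 97.7 of Irgm1. Pmepa1 stood at 20.4 CPM, Cd28 at 344 and Ccr10 at 88.0. The skin Treg genes Areg, Rora and Lmna stood at 17.8, 109 and 79.1 CPM, and Klf4 at 1.78 CPM. Fosb had no UMI there.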
